A study of Mus musculus with 22 samples.

Results

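The genes described here are 9 well-known parts of the glucocorticoid response, measured in mouse lung 24 hours after instillation of multiwalled carbon nanotubes: the receptor gene Nr3c1, the cortisone reductase gene Hsd11b1, and the 7 receptor targets Fkbp5, Tsc22d3, Zbtb16, Sgk1, Dusp1, Klf9 and Pdk4. They were chosen by name, through the RefSeq accession that the array files give for each probe. No measured value set the choice, but earlier results of these data were known when it was made. They account for 9 of the 20018 genes that could be named and for 10 of 55681 probes, since Nr3c1 has 2 probes and each of the others has 1. All 9 were expressed, and every one of their probes was well above background and below saturation on all 22 arrays.

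Glucocorticoids (corticosterone in mice) are adrenal steroid hormones released under stress. They enter the cell and bind the glucocorticoid receptor, which waits in the cytoplasm in a complex with Hsp90 and other chaperones, moves to the nucleus and acts as a transcription factor. There it binds a palindromic DNA element and raises a set of widely shared targets, while it restrains inflammatory genes such as cytokines and chemokines. In lung the pathway is known for fetal maturation of the alveoli and for the anti-inflammatory effect of inhaled steroids, and local reductase activity in tissues such as lung regenerates active hormone from its inactive form.

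The samples were right lungs of female C57BL/6 mice, 8 weeks of age at the start, killed 24 hours after 1 intratracheal instillation. Control mice (n = 5) received the vehicle, 0.9% NaCl with 10% bronchoalveolar lavage fluid, and the others received 18 µg (n = 6), 54 µg (n = 5) or 162 µg (n = 6) of the long, rigid nanotube Mitsui7. All groups, controls included, were anaesthetised with Hypnorm (fentanyl and fluanisone) and Dormicum, both at instillation and before tissue collection, so no mouse was free of handling and anaesthesia. Lung RNA (Cy5) was hybridised against a universal reference RNA from 11 mouse cell lines (Cy3) on 22 arrays, and each level below is a log2 ratio of lung to that reference.

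The arrays lay on 7 slides of 3 or 4, and slides 3 and 6 held no control. Between 52.1% and 83.5% of probes were above background on an array. This limits the precision for dim genes, Pdk4 among them, more than for the rest of the 9 genes here. Type II alveolar markers averaged 5.06 to 6.54 above the reference on the log2 scale. B cell markers averaged 0.76 to 1.53 in controls and -0.14 to 0.79 at 162 µg, with 2 of 5 lower by the test. Ciliated cell markers averaged 3.15 to 3.59 in controls, 1.18 to 3.51 at 18 µg and 1.02 to 3.06 at 162 µg, with 2 of 5 lower by the test at 162 µg. Of the other cell type markers, Marco (alveolar macrophage, 1.51), Pdpn (type I alveolar, 1.04) and Ear6 (eosinophil, 0.81) rose at 162 µg against control, and Cyp2f2 (club cell, -1.0) and Lck (T cell, -0.83) fell. Each was the only marker of its list that passed in this comparison. Estimates above 0 were found for 4 of 6 alveolar macrophage, 3 of 4 type I alveolar and 2 of 5 eosinophil markers. The same held for 0 of 2 club cell and 2 of 6 T cell markers. Their part in the results was not tested. Markers of cardiac muscle (0.58 to 5.26) and of adipocytes (0.58 to 5.70) varied widely from array to array. The 5 controls enter all 3 comparisons with control, and each dose group enters several comparisons.

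RefSeq promoter windows (GRCm38.p6, 250 bases before to 50 bases after each annotated start) were at hand for 7 of the 9 genes, in 14 windows. Nr3c1 and Zbtb16 had none in the table used. The windows were searched on both strands for the receptor half-site AGAACA and for the full element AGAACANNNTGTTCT, which is 2 half-sites as an inverted repeat with a gap of 3 bases and therefore contains both. The half-site was in 4 of the 14 windows (3 of Sgk1 and 1 of Tsc22d3), or 28.6%, and in 19% of all 32851 windows. Sgk1 and Tsc22d3 have several windows each, so these 4 windows stand for 2 of the 7 genes. The full element was in 1 of the 14 and in 3 of all 32851 windows (0.00913%), those of Acnat2, Sgk1 and Gm35041. Below are the Sgk1 window with the full element, which begins 189 bases before the start, the Tsc22d3 window with a half-site, and for comparison the only Fkbp5 window, which has no half-site, with half-sites in capitals.

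Sgk1, chr10:21993640-21993939, plus strand: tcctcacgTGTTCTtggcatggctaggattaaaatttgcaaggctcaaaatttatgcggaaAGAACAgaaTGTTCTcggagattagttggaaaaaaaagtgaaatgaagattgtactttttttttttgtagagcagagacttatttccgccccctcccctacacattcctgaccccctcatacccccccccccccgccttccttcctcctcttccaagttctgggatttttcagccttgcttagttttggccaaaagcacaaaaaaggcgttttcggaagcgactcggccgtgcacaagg

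Tsc22d3, chrX:140600473-140600772, minus strand: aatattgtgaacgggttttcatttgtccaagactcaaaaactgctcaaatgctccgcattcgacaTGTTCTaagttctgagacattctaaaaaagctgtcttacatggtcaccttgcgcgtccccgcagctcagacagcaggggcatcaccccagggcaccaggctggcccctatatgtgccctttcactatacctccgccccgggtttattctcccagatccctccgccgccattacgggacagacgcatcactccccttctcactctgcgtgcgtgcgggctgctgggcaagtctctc

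Fkbp5, chr17:28486100-28486399, minus strand: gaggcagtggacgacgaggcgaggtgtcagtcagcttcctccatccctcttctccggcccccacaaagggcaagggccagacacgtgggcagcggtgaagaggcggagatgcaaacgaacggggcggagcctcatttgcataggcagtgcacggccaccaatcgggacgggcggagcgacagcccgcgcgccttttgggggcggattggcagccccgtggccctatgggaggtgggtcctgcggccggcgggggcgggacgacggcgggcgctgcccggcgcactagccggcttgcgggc

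These matches describe letters in short windows and are no evidence of binding. Of the 7 genes with a window, Hsd11b1, Fkbp5, Dusp1, Klf9 and Pdk4 had no half-site in these 300 bases, and receptor elements are also known far from gene starts. With 1 mismatch allowed, the full element was found in 1 of the 14 windows and in 0.164% of all windows.

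Against control, Fkbp5 (4.87-fold) and Sgk1 (1.91-fold) rose at 162 µg, and 8 of the 9 genes lay higher. Against 18 µg, 7 genes rose at 162 µg: Hsd11b1, Fkbp5, Tsc22d3, Zbtb16, Sgk1, Klf9 and Pdk4, by 1.71-fold to 8.29-fold. The receptor gene itself passed no test. Here and below, a gene rose or fell where the adjusted p was at most 0.05 and the change at least 1.5-fold, in a fit with dose and slide as factors.

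**Figure D1:**
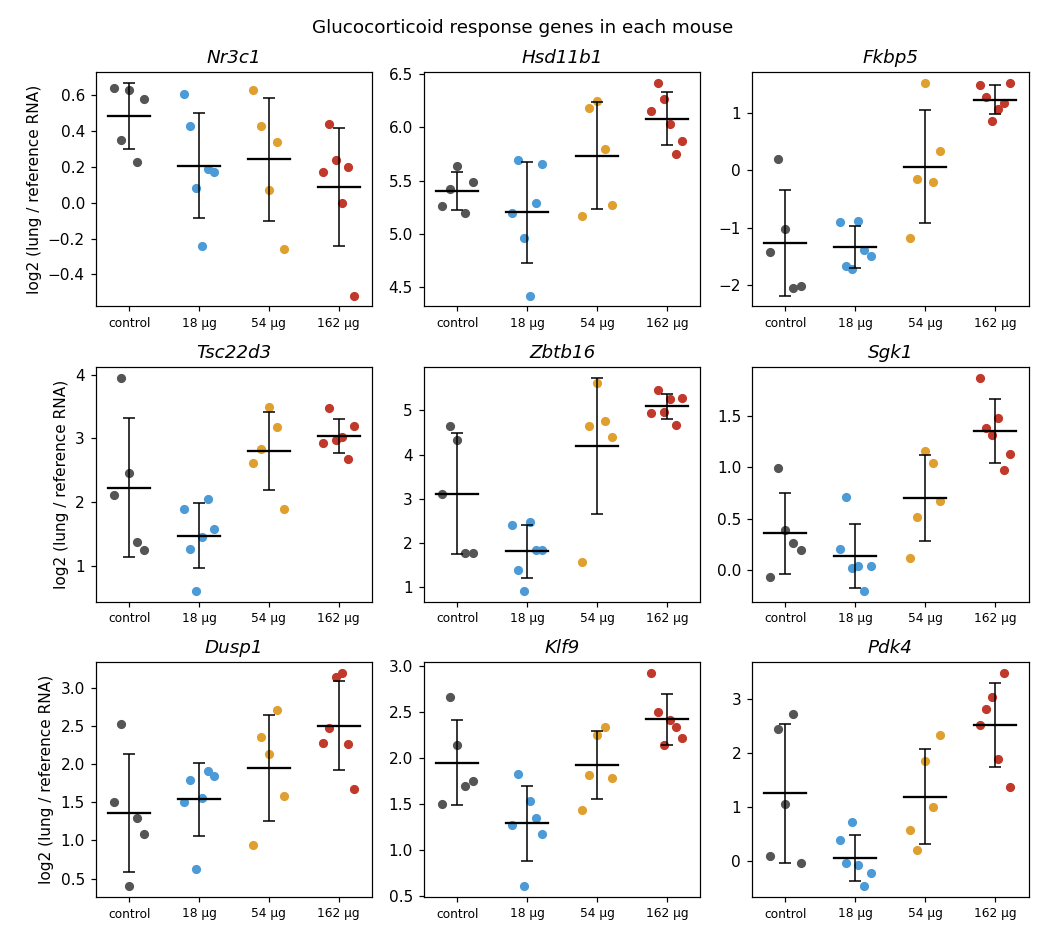
Level of each of the 9 genes in every mouse, as log2 of lung over reference RNA (vertical axes, each with its own range), by dose group. Points are mice (control n = 5, 18 µg n = 6, 54 µg n = 5, 162 µg n = 6), and the long bar with whiskers is the mean ± SD. For Zbtb16, all 6 mice at 162 µg (lowest 4.68) lie above all 6 at 18 µg (highest 2.47), while controls spread from 1.76 to 4.64.

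Nr3c1 encodes the glucocorticoid receptor. Its log2 ratio to the reference by the brighter probe was 0.64, 0.35, 0.63, 0.23 and 0.58 in the 5 controls. It was -0.24, 0.18 and 0.61 (lowest, median and highest) in the 6 mice at 18 µg. The 5 mice at 54 µg had 0.63, 0.43, 0.07, 0.34 and -0.26, and at 162 µg the range was -0.52 to 0.44 with a median of 0.18. All 4 groups overlapped, and 4 of 6 mice at 162 µg were below all controls. The fitted difference at 162 µg against control was -0.20 (SE 0.11, 95% interval -0.45 to 0.04, adjusted p = 0.382). The second probe gave 0.04 (SE 0.16) for the same comparison. The direction thus differed between the probes, and both intervals leave out a 1.5-fold change in either direction at this dose.

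Hsd11b1 encodes 11β-hydroxysteroid dehydrogenase type 1, which reduces inactive 11-dehydrocorticosterone to corticosterone inside the cell. It was far above the reference in every lung. Controls had log2 ratios of 5.26, 5.42, 5.64, 5.20 and 5.49, and mice at 54 µg had 5.17, 6.18, 6.25, 5.80 and 5.27. The lowest, median and highest were 4.42, 5.24 and 5.69 at 18 µg, and 5.75, 6.09 and 6.42 at 162 µg. All 6 mice at 162 µg lay above all controls and above all mice at 18 µg. Against 18 µg it rose at 162 µg by 0.78 on the log2 scale (SE 0.20, adjusted p = 0.0384), and against control the difference of 0.68 (SE 0.22) had an adjusted p of 0.0784, or of 0.0176 to 0.0402 without 18 µg mouse 4 or 6 or 54 µg mouse 3. The call against 18 µg was kept in 9 of 17 alternative settings and lost with normexp, median centring, no normalization, quantile scaling, the deposited table, the replicate block, 2 groups only and the cardiac muscle covariate. It was also lost in 13 of 22 fits that each left out 1 mouse (adjusted p 0.052 to 0.109, with differences of 0.54 to 0.85). Those mice are control 1 and 3, 18 µg 2 to 5, 54 µg 2 and 4, and 162 µg 1 to 4 and 6.

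Fkbp5 encodes FKBP51, an Hsp90 co-chaperone that lowers the hormone affinity of the receptor and is itself a receptor target. Controls had log2 ratios of -1.42, 0.20, -1.03, -2.06 and -2.02. At 18 µg the lowest, median and highest were -1.72, -1.45 and -0.88, and the 5 mice at 54 µg had -1.18, -0.16, 1.53, -0.21 and 0.33. At 162 µg they were 0.86, 1.23 and 1.53, so that all 6 mice were above every control and every mouse at 18 µg. Fkbp5 rose at 162 µg by 2.28 (SE 0.35, adjusted p = 0.00111) against control and by 2.52 (SE 0.33, adjusted p = 0.000481) against 18 µg, and both calls were kept whichever mouse was left out. The call against control was lost with no normalization (1.82, adjusted p = 0.134). At 54 µg the difference from control was 1.15 (SE 0.37, adjusted p = 0.302), with values that reached from the control level to the 162 µg level.

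Tsc22d3 encodes GILZ, a leucine zipper protein that restrains NF-κB and AP-1. In controls the log2 ratio ranged from 1.25 to 3.95 (2.12, 3.95, 2.45, 1.37 and 1.25). It was 0.61, 1.52 and 2.05 (lowest, median and highest) at 18 µg and 2.67, 3.00 and 3.47 at 162 µg, with 2.62, 2.83, 3.49, 3.18 and 1.89 at 54 µg. The 162 µg and 18 µg groups did not overlap, but control mouse 2 lay above all mice at 162 µg. Against 18 µg it rose at 162 µg by 1.53 (SE 0.35, adjusted p = 0.0175). That call was lost without 18 µg mouse 2, 3 or 4 or without 162 µg mouse 3 (adjusted p 0.0537 to 0.0645). Against control the difference was 0.82 (SE 0.37, adjusted p = 0.248), and 1.33 (adjusted p = 0.0137) without control mouse 2.

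Zbtb16 encodes PLZF, a zinc-finger transcriptional repressor. Its 5 control log2 ratios were 3.1, 4.64, 4.32, 1.76 and 1.76. The lowest, median and highest were 0.91, 1.84 and 2.47 at 18 µg and 4.68, 5.11 and 5.46 at 162 µg. Every mouse at 162 µg was above every control, and the gap to the 18 µg group was larger than the spread within either group. It rose by 3.05 (SE 0.49, adjusted p = 0.00203) at 162 µg against 18 µg, the largest difference among the 9 genes in any of the 6 comparisons, and this call held without any one mouse. Against control the difference was 1.66 (SE 0.53, adjusted p = 0.075), which passed without control mouse 2 (2.09, adjusted p = 0.0342) or without 54 µg mouse 1 (1.93, adjusted p = 0.00805). At 54 µg 4 mice had 4.64, 5.63, 4.76 and 4.40 and mouse 1 had 1.57, below all controls.

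Sgk1 encodes a serine/threonine kinase that regulates ion channels, among them the epithelial sodium channel of the airways. Its log2 ratio in controls was -0.06, 0.99, 0.39, 0.27 and 0.20, and at 54 µg it was 0.12, 0.52, 1.16, 1.04 and 0.67. At 18 µg it was -0.20, 0.04 and 0.71 (lowest, median and highest), and at 162 µg 0.97, 1.34 and 1.87. All 6 mice at 162 µg were above the 18 µg group and 5 of 6 were above all controls. Sgk1 rose by 0.94 (SE 0.15, adjusted p = 0.00123) against control and by 1.17 (SE 0.14, adjusted p = 0.000219) against 18 µg at 162 µg, whichever mouse was left out. The call against control was lost with median centring (0.57, adjusted p = 0.412) and with no normalization (0.55, adjusted p = 0.972). With no normalization the call against 18 µg was lost too (1.33, adjusted p = 0.173). Of the several Sgk1 promoter windows, only that shown above holds the full receptor element. The part of this element in these levels was not tested.

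Dusp1 encodes MKP-1, a phosphatase that switches off MAP kinases. Controls had 1.51, 2.53, 0.40, 1.29 and 1.09, and mice at 54 µg had 0.94, 2.36, 2.14, 2.71 and 1.58. The lowest, median and highest log2 ratios were 0.62, 1.68 and 1.91 at 18 µg and 1.68, 2.38 and 3.20 at 162 µg. The groups overlapped in all comparisons with 162 µg. Dusp1 passed no test: the difference at 162 µg was 1.09 (SE 0.37, adjusted p = 0.0972) against control and 0.95 (SE 0.34, adjusted p = 0.149) against 18 µg. Without control mouse 2 the first was 1.38 with an adjusted p of 0.0443.

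Klf9 encodes a Krüppel-like transcription factor that responds to glucocorticoid and thyroid hormone. The 5 controls had log2 ratios of 1.5, 2.67, 2.15, 1.70 and 1.75, and the 54 µg mice had 1.44, 1.82, 2.25, 2.34 and 1.79. At 18 µg the lowest, median and highest were 0.61, 1.31 and 1.83, with 4 of 6 mice below all controls, and at 162 µg they were 2.15, 2.38 and 2.93. Klf9 fell at 18 µg by 0.66 on the log2 scale (SE 0.13, adjusted p = 0.0269) and was the 1 gene of the 9 called at that dose. The call was lost without control mouse 1, 3 or 4 or without 18 µg mouse 3 or 5 (adjusted p 0.0571 to 0.0794). From 18 to 162 µg it rose by 1.06 (SE 0.13, adjusted p = 0.00023), and against control the difference at 162 µg was 0.40 (SE 0.13, adjusted p = 0.0903).

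Pdk4 encodes pyruvate dehydrogenase kinase 4, which turns cells from glucose to fatty acid oxidation and is strongly expressed in heart and skeletal muscle. Controls had 0.09, 2.44, 1.05, 2.72 and -0.03. The lowest, median and highest log2 ratios were -0.46, -0.05 and 0.72 at 18 µg and 1.38, 2.67 and 3.48 at 162 µg, with 0.57, 0.21, 1.85, 1.01 and 2.33 at 54 µg. The 162 µg and 18 µg groups did not overlap, and both overlapped the controls. Pdk4 rose by 2.43 (SE 0.44, adjusted p = 0.00432) at 162 µg against 18 µg, and the difference from control was 1.22 (SE 0.47, adjusted p = 0.158). Its Cy5 signal at 18 µg was only 1.25 to 4.53 times the detection limit, so the low end of these differences lies near the floor.

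**Figure D2:**
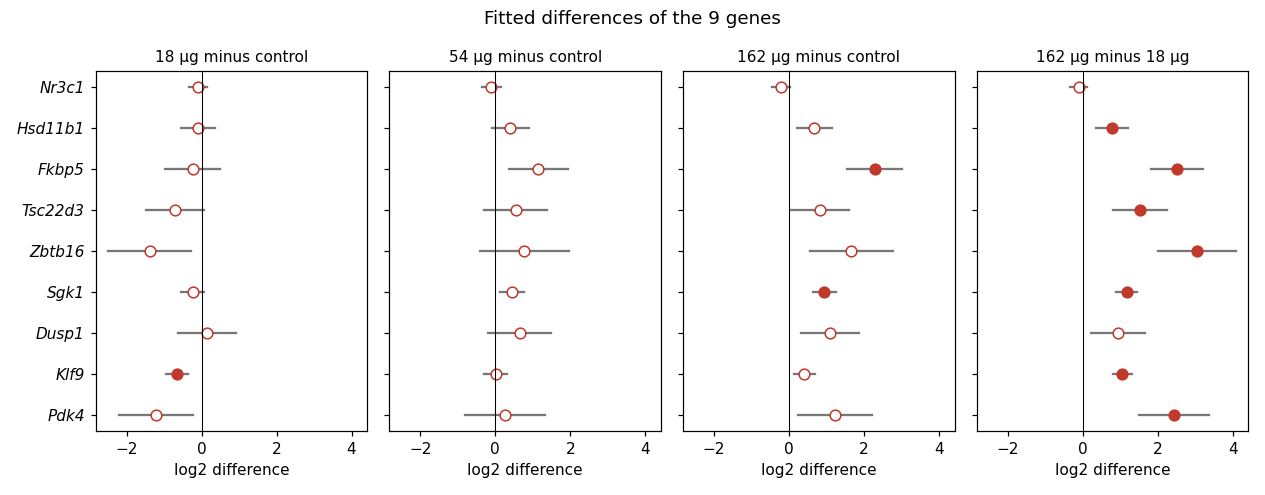
Fitted log2 difference of each gene (horizontal axes) with its 95% confidence interval, for 18, 54 and 162 µg against control and for 162 µg against 18 µg. Filled circles passed the test (adjusted p at most 0.05 and at least 1.5-fold) and open circles did not. The number of filled circles is 1, 0, 2 and 7 from left to right.

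For 162 µg against control, 2 of the 9 genes rose and none fell, where 5.64% of all 20018 genes passed the test in either direction. Only the 16433 expressed genes could pass, and 1130 of them did. The median difference of the 9 was 0.94 on the log2 scale and that of all 16433 expressed genes was -0.01. At an unadjusted p under 0.05 stood 8 of the 9, and 4748 of the 16433 expressed genes. The count depends on control mouse 2: without it, Fkbp5, Tsc22d3, Zbtb16, Sgk1 and Dusp1 rose, 5 in all. For Hsd11b1, Fkbp5 and Zbtb16 every mouse at 162 µg was above every control, as was the case for 3.69% of expressed genes.

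For 162 µg against 18 µg, 7 of 9 genes rose, where 4.1% of all genes passed the test in either direction and 2.74% rose. Of the 16433 expressed genes, 820 passed. The same 7 genes were higher in all 6 mice at 162 µg than in any mouse at 18 µg, which held for 2.11% of expressed genes. Their median difference over all 9 was 1.17, with 0.01 for all expressed genes. Within slides, where a 162 µg and an 18 µg lung lay side by side, each of the 7 was higher at 162 µg on 5 of 5 slides, and Dusp1 on 4 of 5. The differences on single slides ran from 1.94 to 3.16 for Fkbp5, from 2.77 to 4.06 for Zbtb16 and from 1.09 to 1.45 for Sgk1.

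For 18 µg against control, 1 gene fell (Klf9) and none rose, where 1.7% of all genes passed in either direction and 1.18% fell. The 9 genes had a median difference of -0.24 and 8 of 9 estimates lay below 0, with -0.02 for all expressed genes. Zbtb16 (-1.39, SE 0.53, adjusted p = 0.203) and Pdk4 (-1.22, SE 0.47, adjusted p = 0.21) had the largest differences that missed the threshold. On the 4 slides with both groups, Klf9 was lower at 18 µg on all 4. Fkbp5 was higher at 18 µg on 3 of the 4 and differed by -1.87 on slide 2, which held control mouse 2. Without that mouse the fitted Fkbp5 difference was 0.12. For Zbtb16 the difference was -3.25 on slide 2 and ran from -0.86 to 0.08 on the others.

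For 54 µg against control, none of the 9 genes passed the limma test, where 0.32% of all genes did. An unadjusted p under 0.05 was found for 2 of 9 (Fkbp5 and Sgk1) and for 2283 of the 16433 expressed genes. The median difference was 0.45, with 8 of 9 estimates above 0. Between 54 and 18 µg none passed (0.025% of all genes did). In this comparison 7 had an unadjusted p under 0.05, as did 2470 of the 16433 expressed genes. Between 162 and 54 µg none of the 9 and no gene at all passed. Here 3 of the 9 had an unadjusted p under 0.05, as did 2041 of the 16433 expressed genes. The largest difference of the 3 was that of Fkbp5, at 1.13 (SE 0.35, adjusted p = 0.337). The steps on either side of 54 µg were thus not resolved with these groups.

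The spread within groups was itself uneven. Among controls, the SD was 0.92 for Fkbp5, 1.09 for Tsc22d3, 1.36 for Zbtb16, 0.77 for Dusp1 and 1.28 for Pdk4, each larger than that of 98.3% or more of expressed genes, whose median SD was 0.22. At 162 µg the SD of Fkbp5, Tsc22d3 and Zbtb16 was 0.26, 0.27 and 0.28, near the median of 0.28 for expressed genes, while Dusp1 (0.58) and Pdk4 (0.77) stayed wider than 91.5% and 96.5% of them. At 54 µg it was again wide for Fkbp5 (0.99) and Zbtb16 (1.54). Control mouse 2 was the highest of the 5 controls for 6 genes (Fkbp5, Tsc22d3, Zbtb16, Sgk1, Dusp1 and Klf9), and its neutrophil markers averaged 4.95 where those of the other controls were at most 2.96. At 54 µg, mouse 1 was the lowest of 5 for 6 genes and mouse 3 the highest for 5. Neutrophil markers averaged 2.42 to 5.22 at 162 µg and 2.37 to 3.48 at 18 µg, with 0 of 8 called in either comparison. Over 22 arrays with dose and slide removed, r with these markers was 0.272 for Fkbp5, 0.282 for Tsc22d3, 0.172 for Zbtb16 and 0.0286 for Sgk1. Without the 2 arrays farthest from the median it was 0.0585, -0.071, 0.0418 and -0.0966. The part of neutrophils in these levels was not tested.

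**Figure D3:**
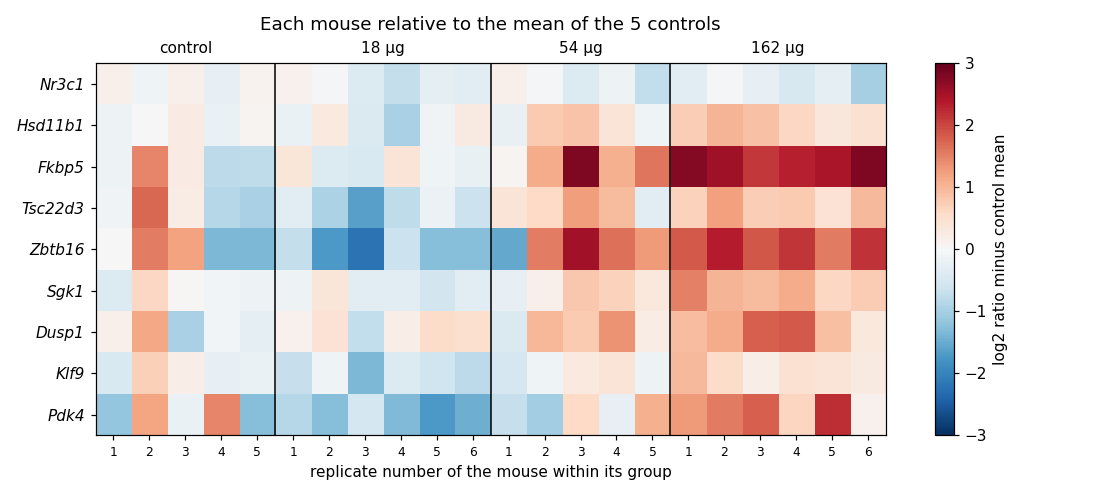
Log2 ratio of each gene in each mouse minus the mean of the 5 controls (colour, red above and blue below, full colour at 3 log2 units), with mice in columns by group and replicate number and no adjustment for slide. Control mouse 2 and 54 µg mice 2 to 5 share the red of the 162 µg group for Fkbp5 and Zbtb16, and 54 µg mouse 1 is near the control mean for Fkbp5 and below it for Zbtb16.

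After dose and slide were removed, 31 of 36 pairs of the 9 genes were positively correlated over the 22 arrays and 12 had r above 0.5, with a median r of 0.36. Over all pairs of 14977 expressed genes, 50.8% were positive and 6.84% were above 0.5. Within single groups, with slide not removed, the pattern differed between groups. Of 36 pairs, 28 were positive among controls (median r 0.465, lowest -0.912) and 27 at 54 µg (median r 0.56, lowest -0.928). It was weaker at 18 µg, with 23 positive (median r 0.184, lowest -0.899), and at 162 µg, with 22 positive (median r 0.186, lowest -0.875). Fkbp5 and Zbtb16 were the closest pair (Pearson r = 0.865, Spearman rho = 0.826, and r = 0.825 without the 2 arrays farthest from the median). Within groups the r of this pair was 0.914 (control), 0.942 (18 µg), 0.85 (54 µg) and 0.216 (162 µg). Next came Sgk1 and Klf9 (r = 0.694, rho = 0.651). Nr3c1 had r of -0.277 (Fkbp5) to 0.327 (Sgk1) with the targets and was closest to Hsd11b1 (r = 0.688, rho = 0.634). These values describe 22 arrays that share slides and a reference channel.

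Over all 22 arrays with dose left in, the genes most like each of the 9 were sought among 14976 expressed genes. Those nearest to Fkbp5 were Map3k6 (r = 0.96), Hif3a (0.959) and Hrct1 (0.946), and those nearest to Zbtb16 were Hif3a (0.92), Adap2 (0.915) and Rbfox3 (0.914). Tsc22d3 was close to Adap2 (0.895) and Zbtb16 (0.855), and Klf9 to Sgk1 (0.876), Tef (0.872) and Tfdp2 (0.868). Sgk1 went with Rgcc (0.929), Sphk1 (0.922) and Ccdc9b (0.911), Hsd11b1 with Timp3 (0.908), Crispld2 (0.9) and Vegfd (0.899), and Dusp1 with Edn1 (0.831), Errfi1 (0.808) and Hilpda (0.785). Pdk4 was most like Myom1 (0.882), a gene of the muscle M-band, Me3 (0.88) and Arl4a (0.877), and Nr3c1 like Dpysl2 (0.899), Ezh1 (0.897) and Adamts17 (0.869).

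Pdk4 varied with markers of muscle and fat. Over 22 arrays with dose and slide removed, its r was 0.761 (rho 0.661) with the mean of 6 cardiac muscle markers and 0.795 (rho 0.817) with that of 5 adipocyte markers, and 0.654 and 0.71 without the 2 arrays farthest from the median. The mean of the cardiac muscle markers had a median of 3.39 over controls, 2.02 over 18 µg mice, 3.21 over 54 µg mice and 3.56 over 162 µg mice, and all 6 markers were higher at 162 than at 18 µg with none called. With the marker mean as a covariate, the Pdk4 difference between 162 and 18 µg was 1.94 (adjusted p = 0.00278) for cardiac muscle and 1.92 (adjusted p = 0.00207) for adipocytes. Against control at 162 µg, Pdk4 passed with the adipocyte covariate (1.22, adjusted p = 0.0201). The part of muscle or fat in the Pdk4 levels was not tested beyond these fits. In whole lung, fewer cells of a type and less RNA per cell cannot be told apart.

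**Figure D4:**
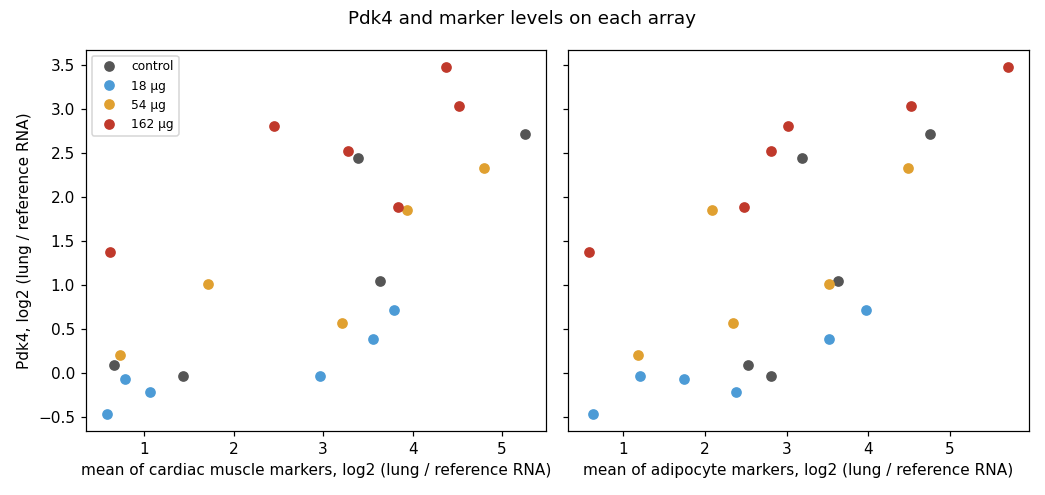
Log2 ratio of Pdk4 on each array (vertical axis) against the mean log2 ratio of 6 cardiac muscle markers (left) or 5 adipocyte markers (right) on the same array, coloured by group. Within each colour Pdk4 tends to be higher where the markers are higher.

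Among 29 other expressed genes known to be induced through the receptor, 12 rose and none fell at 162 µg against control, where 5.64% of all genes passed. Their median difference was 0.68. The metallothionein genes Mt2 and Mt1, which bind metals and respond to several stresses, rose by 4.79 (SE 0.38, adjusted p = 5.01e-06) and 2.94 (SE 0.30). Angptl4, an inhibitor of lipoprotein lipase, rose by 2.67 (SE 0.43), the decoy interleukin-1 receptor gene Il1r2 by 2.36 (SE 0.48) and Hif3a by 2.30 (SE 0.39). The others that rose were Cebpd, Per1, Ddit4, Errfi1, Nfkbia, Tgm2 and Tat, by 0.69 to 1.91. The values of Mt1 and Per1 are from 21 arrays, with 1 flagged spot left out. Of the 17 that did not pass, 5 had estimates below 0, the lowest for Bcl6 (-0.53) and for Rgs2 (-0.66, from 19 arrays). Against 18 µg, 15 of the 29 rose and none fell, where 4.1% of all genes passed. At 54 µg 3 rose against control (Mt2 by 3.79, Mt1 by 1.71 and Tgm2 by 0.81), where 0.32% of all genes passed. At 18 µg 1 fell, where 1.7% passed: the Krüppel-like factor gene Klf15 by 1.20 on the log2 scale (SE 0.28, adjusted p = 0.0432). Klf15 then rose by 1.61 (SE 0.26) from 18 to 162 µg, as did Klf9.

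Of 18 expressed inflammatory genes that the receptor is known to repress, 6 rose and 1 fell at 162 µg against control, where 5.64% of all genes passed. Their median was 0.38. Cxcl1, a neutrophil chemokine that was well above background in 3 of 5 controls, rose by 2.59 (SE 0.31) and the monocyte chemokine Ccl2 by 2.21 (SE 0.49), and Il6, not well above background in any control, was at least 8.38-fold higher (adjusted p = 0.00153). Icam1, an endothelial adhesion molecule, rose by 0.91 (SE 0.24), and Ccl5, a T cell chemokine, fell by 0.95 on the log2 scale (SE 0.23). Csf3 and Cxcl2, also not well above background in any control, were at least 1.44-fold and at least 1.38-fold higher (adjusted p = 0.0055 and 0.0464). At 162 µg Csf3 was well above background in only 4 of 6 mice and Cxcl2 in 3 of 6. Each bound sets the mean normalised Cy5 signal of the bright group against a mean over the dim arrays of the lowest signal well above background there or the probe's own signal, whichever was higher. Between 162 and 18 µg 2 of the 18 rose (Cxcl1 by 1.17 and Csf3, at least 1.4-fold) and 1 fell, the adhesion gene Vcam1, by 0.95. Of all genes, 4.1% passed in this comparison. At 18 µg Cxcl1 rose by 1.42 (SE 0.31), and at 54 µg Ccl2 rose by 2.67 (SE 0.52) and Cxcl1 by 2.29 (SE 0.33).

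Of 22 genes of receptor chaperones and cofactors, 2 fell and none rose at 162 µg against control, where 5.64% of all genes passed. The median was -0.15. Hsp90aa1 fell by 1.08 on the log2 scale (SE 0.24, adjusted p = 0.0119) and Hsp90ab1 by 0.93 (SE 0.21, adjusted p = 0.0119). Against 18 µg 6 fell and none rose, where 4.1% of all genes passed. These were both Hsp90 genes, the Hsp70 family gene Hspa8 (-0.79, SE 0.17), the Hsp40 co-chaperone gene Dnaja1 (-0.86, SE 0.20), Stip1 (-0.72, SE 0.19), which links Hsp70 to Hsp90, and Fkbp4 (-0.85, SE 0.18). Fkbp4 encodes FKBP52, the co-chaperone that competes with the Fkbp5 product for Hsp90, and the pair moved in opposite directions between 18 and 162 µg. The mineralocorticoid receptor gene Nr3c2 was at -0.16 (adjusted p = 0.582), and no coactivator or corepressor passed at any dose against control.

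Of 9 expressed genes of corticosteroid metabolism and transport, 1 rose at 162 µg against control, where 5.64% of all genes passed. Hsd11b2, which encodes the enzyme that inactivates corticosterone, was well above background in no control and in 3 of 6 mice at 162 µg, and was at least 1.23-fold higher (adjusted p = 0.00383). H6pd, whose product supplies the cofactor of the Hsd11b1 enzyme, had a difference of 0.54 (adjusted p = 0.00595) and stayed under the fold minimum. The efflux pump gene Abcb1b rose by 0.67 from 18 to 162 µg (SE 0.19, adjusted p = 0.049). Among 26 expressed paralogues of the 9 genes, 1 rose at 162 µg against control, Fkbp10 by 0.64 (SE 0.12). From 18 to 162 µg Klf13 rose by 0.76 (SE 0.20), Sgk2 rose by 0.64 (SE 0.15) and Fkbp2 fell by 0.64. Of all genes, 5.64% and 4.1% passed in these comparisons. The medians over the paralogues were 0.21 and 0.13 in these comparisons, where those of the 9 genes were 0.94 and 1.17.

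**Figure D5:**
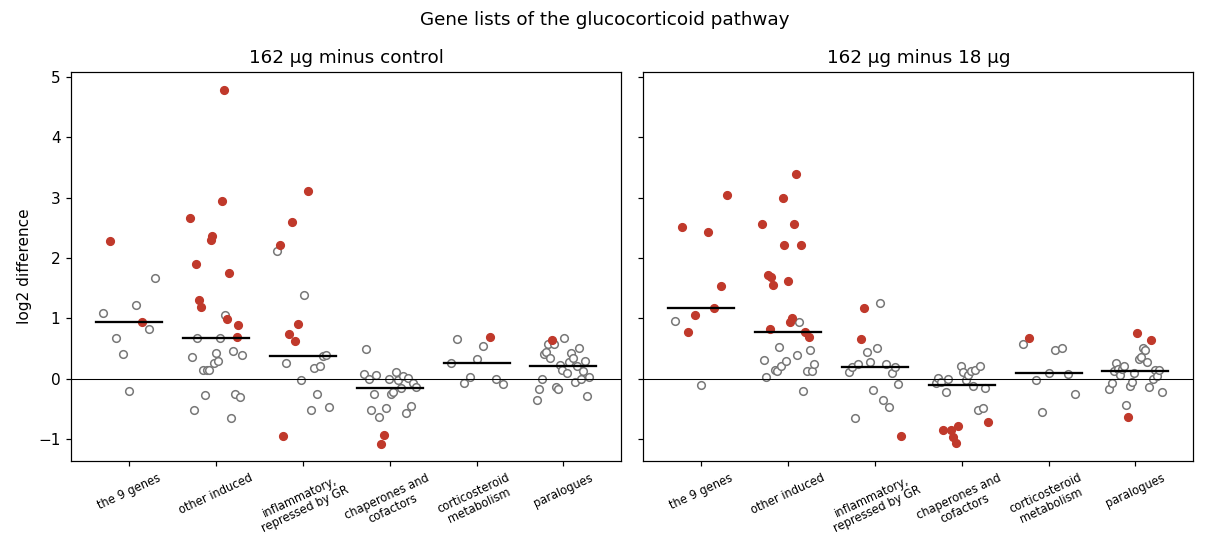
Fitted log2 difference of every expressed gene (points, in alphabetical order within a list) for 162 µg against control (left) and against 18 µg (right), in the 9 genes and the 5 other lists, where GR is the glucocorticoid receptor. Filled points passed the test, open points did not, and bars are list medians. The medians of the 9 genes (0.94 and 1.17) and of the other induced genes (0.68 and 0.78) lie above 0, and those of the chaperones and cofactors (-0.15 and -0.11) below.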

How the data were processed

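RNA of 22 right lungs was measured on Agilent 2-colour arrays (Feature Extraction 10.7.3.1, probe design on mm9). The authors deposited the scanner files, whose median signal intensities for Cy5 (lung) and Cy3 (reference) were used here without background subtraction, and a table of normalised log2 ratios, used as an alternative (r of 0.834 to 0.998 per array with the values used). There was no dye swap, so levels carry any dye bias, which cancels in differences between doses.

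Control spots and flagged spots were left out and log2 ratios were normalised by loess within each array (span 0.3, limma 3.58.1, R 4.3.3). A probe was expressed if, on 80% of the arrays of some group, its signal exceeded the trimmed mean plus 3 SD of the 308 negative control spots. A gene was represented by its brightest probe. All 55681 probes were fitted with limma (dose and slide as factors, 12 residual degrees of freedom) and p-values adjusted by Benjamini-Hochberg over all of them. The test measures the spread among mice. Precision rests on 5 or 6 arrays a group. All 9 genes are named, of each other list the genes that passed (the 5 with the largest change where more did), and for each of the 9 the 3 expressed genes with the highest r over 22 arrays, of which 1 is not reported here. Genes named beyond this rule (Cebpd, Per1, Ddit4, Errfi1, Nfkbia, Tgm2, Tat, Cxcl2, Csf3, Stip1, Bcl6, Rgs2, Nr3c2, H6pd, Marco, Pdpn, Ear6, Cyp2f2, Lck and Klf15 at 162 µg) were chosen after their values were seen. The members and lists were chosen with earlier results of these data known. The procedure was tested on simulated data. Alternatives were 15 planned settings, leaving out each mouse, and 2 marker means as covariates, chosen after seeing the data. Promoters came from RefSeq (GRCm38.p6).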

Additional observations from a re-analysis of the deposited data

Results flagged for a closer look

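Dusp1 in 18 µg mouse 3 was 0.62 on the log2 scale, the lowest of its group of 6 and apart from the nearest value of 1.5. The gap was 0.684 of the group's range, above the 95% critical value of Dixon's test for 6 samples. It was 1 of 36 groups tested, and chance alone passes this limit in about 1 of 20 groups. The same mouse was the lowest of its group for 5 of the 9 genes. The cause was not tested.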

How the results depend on the processing

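Scaling set the counts most. With median centring or no normalization, under which the median of all expressed genes at 18 µg against control was -0.27 and -0.42 in place of -0.02, the 9 genes called at 162 against 18 µg fell from 7 to 4 and 2, at 162 µg against control from 2 to 1 and 0, and at 18 µg from 1 to 0 and 0. The 1 call at 18 µg was also lost (0) with quantile scaling, Cy5 alone, the deposited table, no slide term, slide as a random block, the replicate block, 2 groups only and the adipocyte covariate. At 162 µg against control, Cy5 alone gave 5, slide as a random block 5 and 2 groups only 4, and between 54 and 18 µg Cy5 alone gave 1. Leaving out 1 mouse gave 0 to 1 calls at 18 µg, 2 to 5 at 162 µg, 5 to 7 at 162 against 18 µg and 0 to 2 at 54 against 18 µg (Zbtb16 and Sgk1 without 54 µg mouse 1, Sgk1 and Klf9 without 18 µg mouse 1). Fkbp5 and Zbtb16 at 162 against 18 µg passed under all 15 planned settings and all 22 omissions.

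For the 5 other lists together, 2 calls at 18 µg became 0 with normexp, median centring, no normalization, the deposited table and either marker covariate, 1 with quantile scaling, 5 with Cy5 alone, 4 with slide as a random block, 2 groups only or p adjusted over expressed probes, and 0 to 7 with a mouse left out. The 5 calls at 54 µg became 3 with normexp, quantile scaling, flagged spots kept or the cardiac muscle covariate, 0 with median centring or no normalization, 8 with Cy5 alone, 1 with the deposited table, 19 with 2 groups only, and 1 to 7 with a mouse left out. The 23 at 162 µg became 8 and 1 with median centring and no normalization, and 15 to 31 with a mouse left out. The 28 at 162 against 18 µg became 11 and 4 with those, 18 with the deposited table, and 21 to 30 with a mouse left out. The median r among the 9 genes was 0.51 with median centring and 0.66 with no normalization (0.30 to 0.40 with a mouse left out), and 0.164% of windows held the full element with 1 mismatch.

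Replicate numbers are shared between groups, and the correlations between arrays cannot decide whether the numbers pair the mice. With dose removed 20 of 31 same-number pairs had r above 0.1 (median 0.172, against 40 of 150 other pairs, median -0.0558). By mean r, 11 of 22 arrays were then closest to their own number. With dose and slide removed 4 of 31 did (median -0.00792, against 56 of 150, median 0.0508). Many same-number arrays share a slide, and removing slide also lowers r between arrays of the same slide. With the replicate block, which leaves 7 residual degrees of freedom, 6 of the 9 genes passed at 162 against 18 µg and 0 at 18 µg, and the other lists gave 6 (18 µg), 0 (54 µg), 8 (162 µg) and 17 (162 against 18 µg). The block turned the differences at 54 µg of Zbtb16 (-0.63), Dusp1 (-0.05) and Klf9 (-0.10), and that of Dusp1 at 18 µg (-0.13).

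No called difference reversed. Among uncalled ones, Klf9 at 54 µg was -0.00 with normexp, -0.04 with median centring, -0.03 without a slide term and -0.01 with slide as a random block or the cardiac muscle covariate. Pdk4 at 54 µg was -0.06 without a slide term and -0.01 with the cardiac muscle covariate. Dusp1 at 18 µg was -0.26 with median centring, -0.41 with no normalization and -0.14 with 2 groups only. Nr3c1 at 162 against 18 µg was 0.03, 0.17 and 0.01 with median centring, no normalization and Cy5 alone, at 54 µg 0.04 and 0.03 with the last pair, and at 18 µg 0.02 as the mean of its probes. Hsd11b1 at 18 µg was 0.02 with quantile scaling. With a mouse left out, ranges across 0 were -0.12 to 0.10 (Klf9) and -0.12 to 0.66 (Pdk4) at 54 µg, and -0.52 to 0.12 (Fkbp5), -0.09 to 0.43 (Dusp1) and -0.20 to 0.06 (Hsd11b1) at 18 µg, and for Nr3c1 at 162 against 18 µg -0.17 to 0.00. The causes were not tested, and with 5 or 6 mice a group a difference that missed the threshold is not shown to be absent.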
